A study of Homo sapiens with 12 samples.

Results

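The antioxidant genes described here are 39 human genes for NRF2 (gene NFE2L2), its sensor KEAP1 and the enzymes of glutathione, thioredoxin, peroxide and superoxide handling. They were taken by symbol from the 57704 genes of the count table, as a family named with earlier results of these data known. NRF2 is a transcription factor that KEAP1 holds in the cytoplasm and passes to ubiquitin-dependent destruction. Oxidants and electrophiles modify cysteines of KEAP1, after which NRF2 accumulates, pairs with small MAF proteins and binds antioxidant response elements. Glutathione and thioredoxin are the main thiol reductants of the cell, both kept reduced with NADPH. Glutathione peroxidases and peroxiredoxins use them to remove peroxides.

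HEK293 cells, a line from human embryonic kidney, were used in all 12 libraries, and every culture stably carried the intron-DARP-EGFP reporter, a repeat-containing construct. Cells received pooled siRNAs against SUPT4H1, or scrambled siRNA, both at 100 nM for 72 h, in 6 transfections per treatment made from 1 starting culture. SUPT4H1 encodes SPT4, a small subunit of the transcription elongation factor DSIF. P-values below thus measure how far transfections of this culture varied, and may leave out variation between cultures. Lysates with SUPT4H1 siRNA received ERCC standard mix 2 and those with scrambled siRNA mix 1, so mix and treatment cannot be told apart. The reads were 3′-end tags of polyadenylated RNA, which count transcripts without regard to their length.

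The libraries held 6591194 to 11366971 endogenous counts with SUPT4H1 siRNA and 7337033 to 20269171 with scrambled siRNA. SUPT4H1 itself was at 17.7 to 23.2 CPM (counts per 1000000 endogenous counts, TMM-scaled) with its siRNA and at 175 to 198 CPM with scrambled siRNA, 8.81-fold lower. RNA integrity numbers were 9.6 to 10 and 9.9 to 10. SUPT4H1 siRNA replicate 6 stood apart from its group on the second principal component (38.4, against -19.5 to -3.92 for the other replicates). The 6 embryonic kidney markers summed to 142 to 156 CPM with SUPT4H1 siRNA and 126 to 159 CPM with scrambled siRNA, at uneven levels. LHX1 was at 35.2 to 45.0 CPM with SUPT4H1 siRNA and at 36.5 to 50.4 CPM with scrambled siRNA. PAX2 was at only 0.407 to 1.32 and 1.06 to 2.16 CPM. PAX8 had at most 4 counts in any library and was not tested. Among 5 epithelial markers, 3 of the 4 tested fell in relative abundance (EPCAM, CDH1 and KRT18), where 19.8% of all genes tested fell. The summed level of the list was 105 to 182 CPM with SUPT4H1 siRNA and 203 to 251 CPM with scrambled siRNA. Of 6 fibroblast markers, 2 of the 3 tested rose (COL3A1 and PDGFRA), where 20.3% of all genes tested rose. The other, COL1A1, was lower without passing the test (log2 -0.46, edgeR adjusted p = 0.083). The fibroblast list had sums of 8.78 to 14.4 and 8.42 to 14.7 CPM. The neuronal list had sums of 33.8 to 55.5 and 46.7 to 74.4 CPM. Of its 2 tested genes MAP2 fell, where 19.8% of all genes fell, and SYT1 did not pass (log2 -0.47, edgeR adjusted p = 0.071). SNAP25, not tested, had a higher median with SUPT4H1 siRNA (1.14 CPM, against 0.326 CPM with scrambled siRNA). RBFOX3 had at most 4 counts in any library, and TUBB3 had 0 counts in all libraries. Overlaps of TUBB3 with other genes were not examined. Leukocyte and endothelial markers summed to at most 1.83 CPM in any library, with PTPRC and CDH5 at 0 counts in all 12. The part that these shifts have in the values below was not tested.

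The antioxidant response element core is searched here as TGACNNNGC on both strands of the RefSeq promoter windows (GRCh38.p14), which run from 250 bases before to 50 bases after each listed start. Of the 39 genes, 31 had a window, and 7 of these genes (22.6%) held the core, against 4384 of all 27305 genes with a window (16.1%). The 7 genes are KEAP1, GCLM, TXNRD1, PGD, ME1, GSTP1 and MGST1. The 8 genes without a window are PRDX1, PRDX6, SOD1, GSR, FTH1, HMOX1, TXN2 and GSS. The sequences below are shown because they belong to genes that moved in opposite directions or did not pass the test. Each lies before a listed RefSeq start, which for all the genes shown is inside the span that GENCODE gives the gene. They are written 5′ to 3′ on the strand of the gene, with the core in capitals (GCNNNGTCA where it lies on the opposite strand).
GCLM, chr1:93909446-93909474, minus strand: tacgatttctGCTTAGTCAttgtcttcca
GSTP1, chr11:67583736-67583764, plus strand: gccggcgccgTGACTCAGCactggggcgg
ME1, chr6:83431170-83431198, minus strand: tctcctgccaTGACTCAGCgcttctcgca
KEAP1, chr19:10502784-10502812, minus strand: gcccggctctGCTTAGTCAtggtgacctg
KEAP1, chr19:10502807-10502835, minus strand: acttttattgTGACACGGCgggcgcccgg
TXNRD1, chr12:104286920-104286948, plus strand: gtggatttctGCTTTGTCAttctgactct
PGD, chr1:10398853-10398881, plus strand: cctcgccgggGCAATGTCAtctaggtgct
Some matches are not shown. TXNRD1 also had a match at chr12:104215670-104215698, before a listed start where the GENCODE span begins, and at chr12:104215761-104215789, reaching that start. ME1 (chr6:83431022-83431050) and MGST1 (chr12:16347135-16347163) had a match after a listed start. The cores before ME1 and GSTP1 are the same 9 bases and overlap an AP-1 core (TGANTCA). In relative abundance GCLM and GSTP1 rose, ME1 fell, and KEAP1, TXNRD1, PGD and MGST1 did not pass the test, so genes with the core went both ways. These are 28.6% risen and 14.3% fallen. The shares were 23.8% and 14.3% of the 21 tested antioxidant genes whose windows lacked the core. Of all genes tested, 20.3% rose and 19.8% fell. Sequence outside the windows was not searched. A match describes letters and is not a measured site.

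Of the 39 genes, 36 passed the filter on low counts, and SRXN1, OSGIN1 and GPX7 did not. Relative to the rest of the transcriptome, 11 antioxidant genes rose and 5 fell at an adjusted p under 0.05 (edgeR quasi-likelihood test), while 20 did not pass. The background was high: 20.3% of the 13820 genes tested rose and 19.8% fell, against 30.6% and 13.9% of the antioxidant genes tested. Their median log2 fold change was 0.03 beside 0.00 for all genes. The risen genes were NFE2L2, NQO1, HMOX1, GCLM, GSS, GSR, TXN, PRDX1, CAT, TKT and GSTP1. The fallen ones were ME1, GPX4, PRDX4, SOD1 and SOD2. Both groups of libraries were free of overlap for 10 genes, 7 of them higher and 3 lower with SUPT4H1 siRNA, where 20.2% of all tested genes were free of overlap, 10.3% higher and 9.91% lower. Without SUPT4H1 siRNA replicate 6, 12 genes rose and 6 fell. The number that fell was 8 without SUPT4H1 siRNA replicate 3 and 10 without scrambled siRNA replicate 2.

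**Figure D1:**
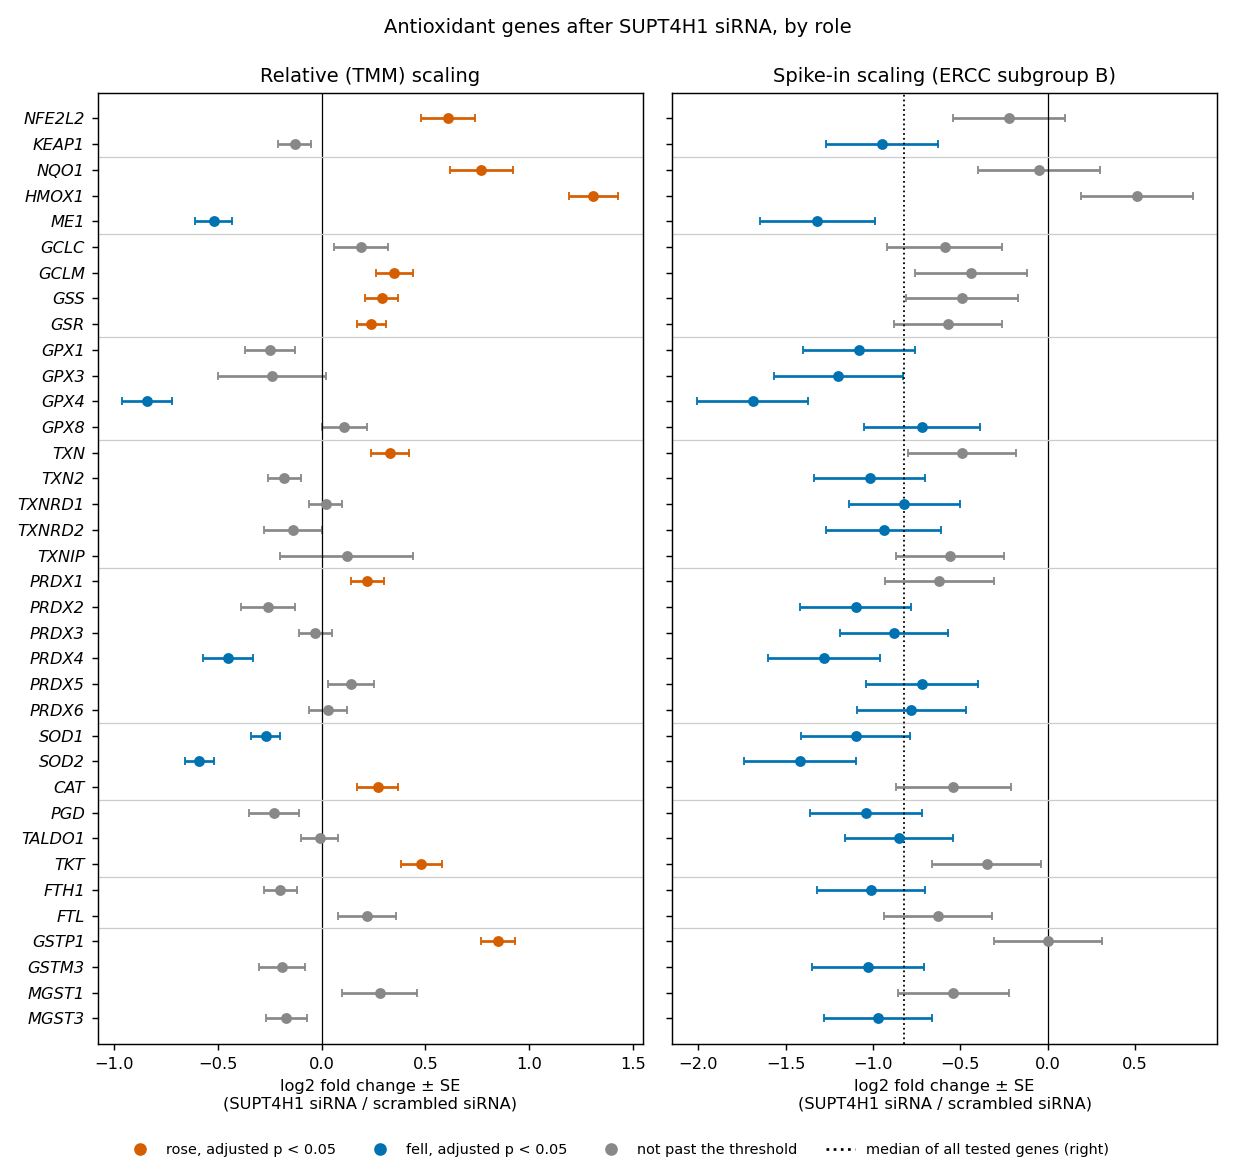
Log2 fold change with its SE (SUPT4H1 siRNA over scrambled siRNA, n = 6 each) of the 36 tested genes, ordered by role, under relative scaling on the left and ERCC spike-in scaling on the right. On the left 11 genes rose and 5 fell, and on the right none rose, 21 fell and the dotted line marks the median of all tested genes at -0.82.

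A spike-in scale sets each library against its ERCC standards of subgroup B. On it, endogenous counts per standard were 8.23 ± 0.568 (log2) with SUPT4H1 siRNA and 9.16 ± 0.322 with scrambled siRNA (SD, n = 6 each), and the median of all tested genes moved by -0.82. Of the antioxidant genes, 21 fell (58.3% of those tested) and 0 rose (edgeR; 0 also at an unadjusted p under 0.05), with a median of -0.80. The background was 59.0% fallen and 0.304% risen of 13820 genes. Each lysate came from 1000000 cells and received the same volume of diluted standards, per the labels' protocols. In bulk samples such as these, fewer cells of a type and less RNA per cell cannot be told apart. The count rests on the standards used: 4 genes fell when subgroup C set the scale, and 32 fell without SUPT4H1 siRNA replicate 5. The count over all genes moved as well, from 8159 fallen in the main fit to 2227 and 12306 in these fits. Only HMOX1 had a positive estimate on the subgroup B scale, which did not pass the test, while with subgroup C NFE2L2, NQO1 and GSTP1 were positive too. Directions given below as rose or fell are relative ones, with the spike-in value beside them.

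The sensor pair was uneven. NFE2L2 (ENSG00000116044, GRCh38 chr2:177227595-177392697, minus strand) was at 23.9, 32.9 and 47.8 CPM (lowest, median and highest library) with SUPT4H1 siRNA, against 20.1, 21.5 and 26.3 CPM with scrambled siRNA. In 5 of 6 SUPT4H1 siRNA libraries it exceeded every scrambled library, and the highest was replicate 6. It rose 1.53-fold (log2 0.61, SE 0.13, edgeR adjusted p = 0.00068), and stood at -0.22 (adjusted p = 0.53) on the spike-in scale. KEAP1, which targets NRF2 for destruction, was at 63.3 to 77.9 CPM against 67.4 to 83.1 CPM with scrambled siRNA, a log2 change of -0.13 that did not pass (adjusted p = 0.19). Its spike-in value was -0.95 (adjusted p = 0.0085). The transcribed region of NFE2L2 overlaps exons of other genes on both strands. Since the strand setting of the counting is not given in the sources used here, its counts may include reads of those neighbours.

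HMOX1 (ENSG00000100292, chr22:35380361-35394214, plus strand), heme oxygenase 1, degrades heme to biliverdin, iron and carbon monoxide. It had the largest relative rise among the 36 tested genes. Its level was 29.6, 39.1 and 49.8 CPM with SUPT4H1 siRNA, against 12.8, 15.8 and 19.6 CPM with scrambled siRNA. Every SUPT4H1 siRNA library lay above every scrambled one. The rise was 2.48-fold (log2 1.31, SE 0.12, edgeR adjusted p = 4.40e-08), and the spike-in value was 0.51 (SE 0.32, adjusted p = 0.15).

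NQO1 (ENSG00000181019, chr16:69706996-69726951, minus strand), a quinone reductase widely read as an NRF2 target, was low in these cells. It had 6.00, 7.31 and 8.25 CPM with SUPT4H1 siRNA, against 3.50, 4.08 and 5.12 CPM with scrambled siRNA, from 45 to 95 and 29 to 89 counts. The groups did not overlap, and it rose 1.70-fold (log2 0.77, SE 0.15, edgeR adjusted p = 0.00032), with -0.05 (adjusted p = 0.90) on the spike-in scale. ME1 (ENSG00000065833, chr6:83210389-83431071, minus strand), the cytosolic malic enzyme that makes NADPH, went the other way. It had 23.4, 28.2 and 31.5 CPM with SUPT4H1 siRNA, against 36.7, 39.8 and 41.1 CPM with scrambled siRNA. All SUPT4H1 siRNA libraries lay below all scrambled ones, and it fell 1.43-fold (log2 -0.52, SE 0.09, edgeR adjusted p = 9.67e-05; spike-in -1.32, adjusted p = 0.00057).

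The other inducible NRF2 targets of the list had few or no counts. SRXN1, sulfiredoxin, which repairs overoxidised peroxiredoxins, had 0 counts in all 12 libraries, which allows up to 0.264 to 0.455 CPM with SUPT4H1 siRNA and 0.148 to 0.409 CPM with scrambled siRNA (3 counts, counting error only). Its exons overlap AL121758.1 on the same strand, which also had 0 counts, and how reads shared by both genes were counted is not known here, so the 0 need not mean a low level. OSGIN1, an oxidative stress-induced growth inhibitor, had 0 to 4 counts with SUPT4H1 siRNA and 2 to 11 counts with scrambled siRNA, and its exons overlap AC009119.2 on the same strand, with 0 counts. Neither was tested.

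Glutathione synthesis and recycling had 3 risen genes of 4 and 0 that fell, beside 20.3% risen and 19.8% fallen of all genes tested, a count too small to set the group apart. GCLM (ENSG00000023909, chr1:93885205-93909456, minus strand), the modifier subunit of glutamate-cysteine ligase, was at 37.1, 44.2 and 46.2 CPM with SUPT4H1 siRNA, against 30.0, 32.0 and 38.0 CPM with scrambled siRNA. The groups overlapped through the lowest SUPT4H1 siRNA libraries, and 4 of 6 lay above every scrambled one. It rose 1.27-fold (log2 0.35, SE 0.09, edgeR adjusted p = 0.0039; spike-in -0.44, adjusted p = 0.21). Its catalytic partner GCLC was at 14.1 to 22.4 CPM against 14.2 to 18.9 CPM with scrambled siRNA and did not pass (log2 0.19, adjusted p = 0.24).

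Glutathione synthetase, GSS, which adds glycine in the last step of synthesis, was at 57.5, 64.8 and 75.2 CPM with SUPT4H1 siRNA, against 50.3, 52.0 and 57.1 CPM with scrambled siRNA. Glutathione reductase, GSR, which regenerates the thiol form, was at 145, 154 and 157 CPM, against 116, 127 and 143 CPM. Neither gene had overlapping groups, although the gaps between groups were narrow. GSS rose 1.22-fold (edgeR adjusted p = 0.0071) and GSR 1.18-fold (adjusted p = 0.0082). Their spike-in values were -0.49 and -0.57 and did not pass (adjusted p = 0.16 and 0.10).

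The glutathione peroxidases had no risen member and 1 fallen one of 4 tested, where 20.3% of all genes tested rose and 19.8% fell. GPX4 (ENSG00000167468, chr19:1103926-1106791, plus strand), the selenoenzyme that reduces lipid hydroperoxides in membranes and restrains ferroptosis, fell furthest of the 36 tested genes. It was at 110, 152 and 185 CPM with SUPT4H1 siRNA, against 218, 271 and 348 CPM with scrambled siRNA. Every SUPT4H1 siRNA library was below every scrambled one, replicate 6 being the lowest. It fell 1.79-fold (log2 -0.84, SE 0.12, edgeR adjusted p = 3.16e-05; spike-in -1.69, adjusted p = 9.26e-06).

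The other peroxidases did not pass the relative test. GPX1, the abundant cytosolic selenoenzyme, was at 136 to 248 CPM against 195 to 291 CPM with scrambled siRNA (log2 -0.25, adjusted p = 0.098), and it passed without SUPT4H1 siRNA replicate 3 (adjusted p = 0.032) or scrambled siRNA replicate 2 (adjusted p = 0.035). The secreted GPX3 was at 1.33 to 5.45 CPM against 3.53 to 5.25 CPM, from as few as 10 counts in a library (log2 -0.24, adjusted p = 0.50). GPX8, an endoplasmic reticulum member without selenocysteine, was at 17.2 to 24.8 CPM against 17.8 to 22.6 CPM (log2 0.11, adjusted p = 0.43). GPX7, its close relative, had at most 4 counts in any library of either group and was not tested. On the spike-in scale all 4 tested peroxidases fell, by 0.72 to 1.69 (log2), where 59.0% of all genes fell. GPX8 passed there in 2 of the 12 fits that left out 1 library, and with subgroup C GPX1, GPX3 and GPX8 did not pass (adjusted p = 0.078, 0.072 and 0.36).

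In the thioredoxin system only the cytosolic thioredoxin passed the relative test among 5 genes, beside 20.3% risen and 19.8% fallen of all genes. TXN (ENSG00000136810, chr9:110243811-110256640, minus strand), which reduces protein disulfides and peroxiredoxins, was at 351, 368 and 418 CPM with SUPT4H1 siRNA, against 234, 314 and 339 CPM with scrambled siRNA. The groups did not overlap, with the lowest scrambled libraries furthest off. It rose 1.26-fold (log2 0.33, SE 0.09, edgeR adjusted p = 0.0054; spike-in -0.49, adjusted p = 0.15). Mitochondrial TXN2 had a log2 change of -0.18 (adjusted p = 0.083), and without scrambled siRNA replicate 2 it passed as a fall of 0.23 (adjusted p = 0.041).

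The thioredoxin reductases, selenoenzymes of the cytosol (TXNRD1) and mitochondria (TXNRD2), had log2 changes of 0.02 and -0.14 (adjusted p = 0.87 and 0.47). TXNRD1 ranged over 79.1 to 98.3 CPM with SUPT4H1 siRNA and 78.7 to 99.4 CPM with scrambled siRNA, so the ranges nearly coincided. TXNIP, the thioredoxin-interacting inhibitor, was the least even gene of the system, at 51.1, 119 and 156 CPM against 50.6, 104 and 164 CPM. Its coefficient of variation was 32.1% within SUPT4H1 siRNA libraries and 39.9% within scrambled ones, and its log2 change of 0.12 had an SE of 0.32 (adjusted p = 0.80).

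**Figure D2:**
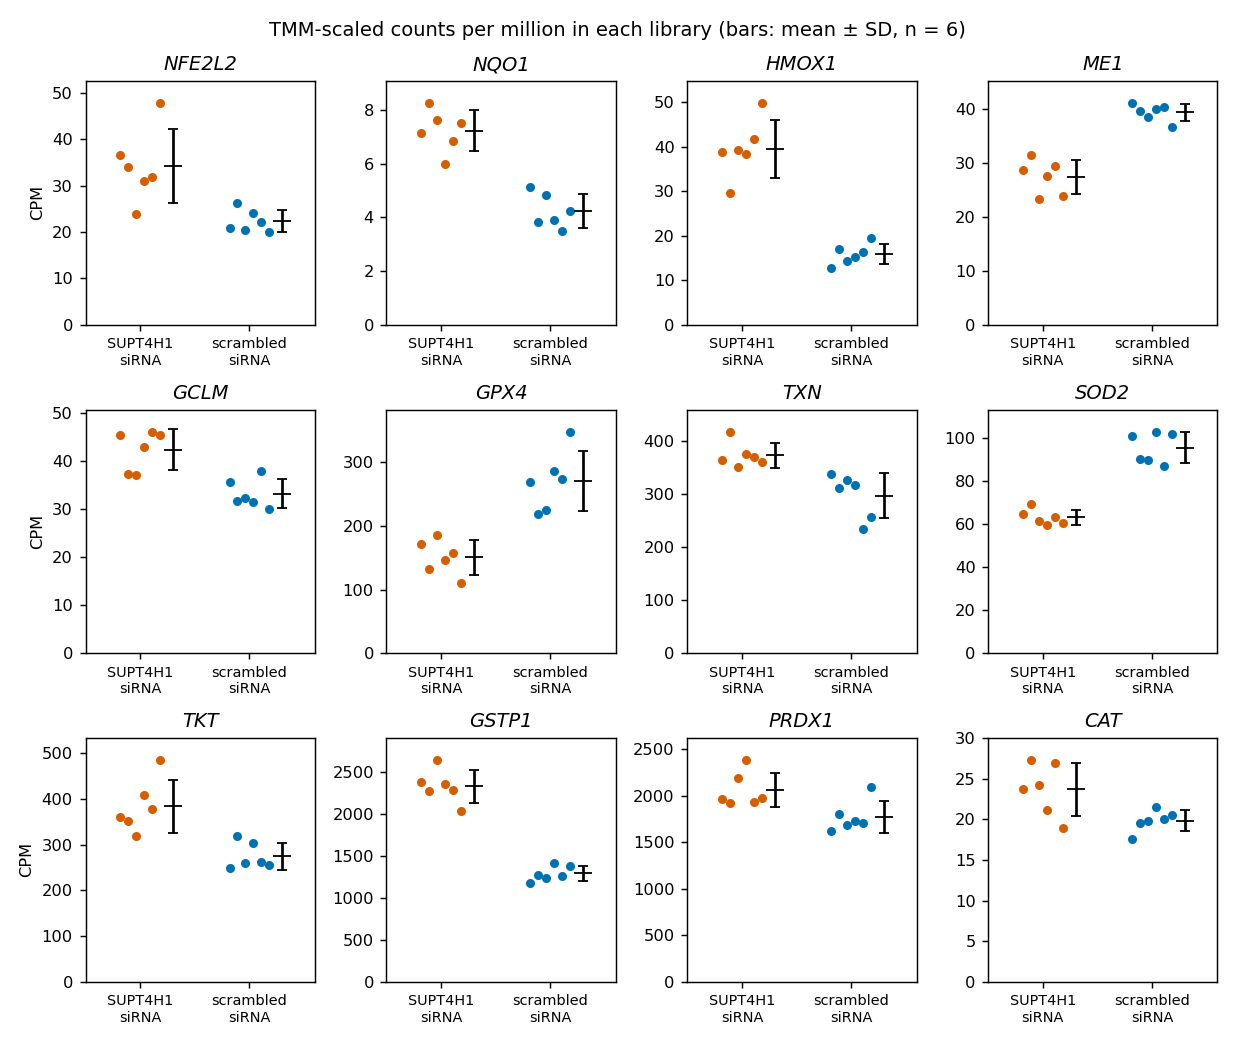
Level in each of the 12 libraries (CPM, linear axes from 0) of 12 antioxidant genes, with SUPT4H1 siRNA on the left of each panel and the mean ± SD beside the points (n = 6 each). The groups are apart for HMOX1, NQO1, TXN, TKT and GSTP1 (higher) and for ME1, GPX4 and SOD2 (lower), and they overlap for NFE2L2, GCLM, PRDX1 and CAT.

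The 6 peroxiredoxins, thiol peroxidases recharged mostly by thioredoxin, had 1 risen and 1 fallen gene in relative abundance. That is 16.7% each, near the 20.3% risen and 19.8% fallen of all genes tested. PRDX4, the endoplasmic reticulum form (ENSG00000123131, chrX:23664262-23686399, plus strand), was at 144, 232 and 286 CPM with SUPT4H1 siRNA, against 257, 307 and 373 CPM with scrambled siRNA. In 5 of 6 libraries it was below every scrambled library, and replicate 6 was again the lowest. It fell 1.37-fold (log2 -0.45, SE 0.12, edgeR adjusted p = 0.0071; spike-in -1.28, adjusted p = 0.00057).

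PRDX1, a major cytosolic form, was at 1922, 1973 and 2385 CPM against 1621, 1718 and 2100 CPM with scrambled siRNA. The groups overlapped, with 2 of 6 SUPT4H1 siRNA libraries above the highest scrambled one. Its rise of 1.16-fold was at the edge of the test (edgeR adjusted p = 0.042) and passed in 4 of the 12 fits that left out 1 library, namely without scrambled siRNA replicate 6 or SUPT4H1 siRNA replicate 2, 5 or 6. PRDX2, PRDX3, PRDX5 and PRDX6 had log2 changes of -0.26, -0.03, 0.14 and 0.03 and did not pass (adjusted p = 0.12 to 0.81). PRDX2 passed as a fall without SUPT4H1 siRNA replicate 3 (adjusted p = 0.049) and without scrambled siRNA replicate 2 (0.035) or 3 (0.048). On the spike-in scale 5 of 6 peroxiredoxins fell, where 59.0% of all genes fell, and PRDX1 did not pass (-0.62, adjusted p = 0.069). PRDX5 passed there in 4 and PRDX6 in 5 of the 12 fits that left out 1 library, and with subgroup C only PRDX4 passed.

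Both intracellular superoxide dismutases fell, where 19.8% of all genes tested fell in relative abundance. SOD2 (ENSG00000112096, chr6:159669057-159745186, minus strand), the manganese enzyme of mitochondria, was at 59.8, 62.4 and 69.4 CPM with SUPT4H1 siRNA, against 87.2, 95.9 and 103 CPM with scrambled siRNA. The groups were well apart. It fell 1.51-fold (log2 -0.59, SE 0.07, edgeR adjusted p = 2.13e-06; spike-in -1.42, adjusted p = 0.00018). Its exons overlap WTAP on the opposite strand, so reads of the pair may be mixed.

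SOD1, the cytosolic copper-zinc enzyme, was at 799, 865 and 946 CPM with SUPT4H1 siRNA, against 938, 1046 and 1157 CPM with scrambled siRNA. A single SUPT4H1 siRNA library reached the scrambled range. It fell 1.20-fold (log2 -0.27, SE 0.07, edgeR adjusted p = 0.0075; spike-in -1.10, adjusted p = 0.0024). Catalase, CAT, the peroxisomal enzyme that splits hydrogen peroxide, was at 18.9, 24.0 and 27.3 CPM against 17.6, 19.9 and 21.5 CPM. It overlapped in 2 of 6 libraries and rose 1.20-fold (edgeR adjusted p = 0.042; spike-in -0.54, adjusted p = 0.13). That call held in 3 of the 12 fits that left out 1 library (scrambled siRNA replicate 4, SUPT4H1 siRNA replicate 4 or 6). It was lost with RNA integrity as a covariate (log2 0.23, adjusted p = 0.13), with upper-quartile factors (0.062) and without the low-count filter (0.092).

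In the pentose phosphate pathway, whose oxidative branch makes NADPH, the 3 genes differed. TKT (ENSG00000163931, chr3:53224707-53256052, minus strand), transketolase of the non-oxidative branch, was at 320, 369 and 485 CPM with SUPT4H1 siRNA, against 249, 260 and 320 CPM with scrambled siRNA. The lowest SUPT4H1 siRNA library lay only just above the highest scrambled one. It rose 1.40-fold (log2 0.48, SE 0.10, edgeR adjusted p = 0.00040; spike-in -0.35, adjusted p = 0.31). TALDO1, transaldolase of the same branch, and PGD, which makes NADPH in the oxidative branch, had log2 changes of -0.01 and -0.23 and did not pass (adjusted p = 0.93 and 0.15). PGD passed as a fall without scrambled siRNA replicate 2 (log2 -0.32, adjusted p = 0.036).

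The ferritin subunits, which store iron, did not pass the relative test in either direction. On the spike-in scale, where 59.0% of all genes fell, FTH1 fell (log2 -1.01, edgeR adjusted p = 0.0049). FTL did not pass there (-0.63, adjusted p = 0.069), and with subgroup C FTH1 did not either (-0.69, adjusted p = 0.11). FTH1, the heavy ferroxidase chain, was at 449 to 558 CPM with SUPT4H1 siRNA and 497 to 651 CPM with scrambled siRNA (log2 -0.20, adjusted p = 0.059). This was close to the threshold: it passed with DESeq2 (adjusted p = 0.039), with upper-quartile factors (0.036) and when the low-count filter came before the scaling (0.047), and also without SUPT4H1 siRNA replicate 3 (0.048) or 6 (0.043) or scrambled siRNA replicate 2 (0.011). FTL, the light chain, was at 92.2, 159 and 197 CPM against 105, 138 and 153 CPM, with replicate 6 the lowest and 5 of 6 libraries above every scrambled one. Its log2 change of 0.22 did not pass (adjusted p = 0.23), and without SUPT4H1 siRNA replicate 6 it was 0.31 (adjusted p = 0.0060). Together the pair took 0.0680 ± 0.00631% of endogenous counts with SUPT4H1 siRNA and 0.0716 ± 0.00580% with scrambled siRNA (SD, n = 6 each). Ferritin has many processed pseudogenes, and reads of near-identical copies may be split, so these levels are uncertain. The 25 FTH1 pseudogene rows of the table held 0.272% as many counts as FTH1 itself.

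Among the glutathione S-transferases, GSTP1 (ENSG00000084207, chr11:67583595-67586656, plus strand), the cytosolic pi-class enzyme, was the only one past the relative test. It was at 2030, 2320 and 2642 CPM with SUPT4H1 siRNA, against 1183, 1266 and 1418 CPM with scrambled siRNA. The ranges were far apart. Of all genes tested, 20.3% rose and 19.8% fell in relative abundance. GSTP1 rose 1.80-fold (log2 0.85, SE 0.08, edgeR adjusted p = 5.74e-08), while its spike-in value was -0.00 and did not pass. GSTM3, MGST1 and MGST3, a mu-class enzyme and 2 membrane-bound ones, had log2 changes of -0.19, 0.28 and -0.17 and did not pass (adjusted p = 0.16 to 0.23).

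**Figure D3:**
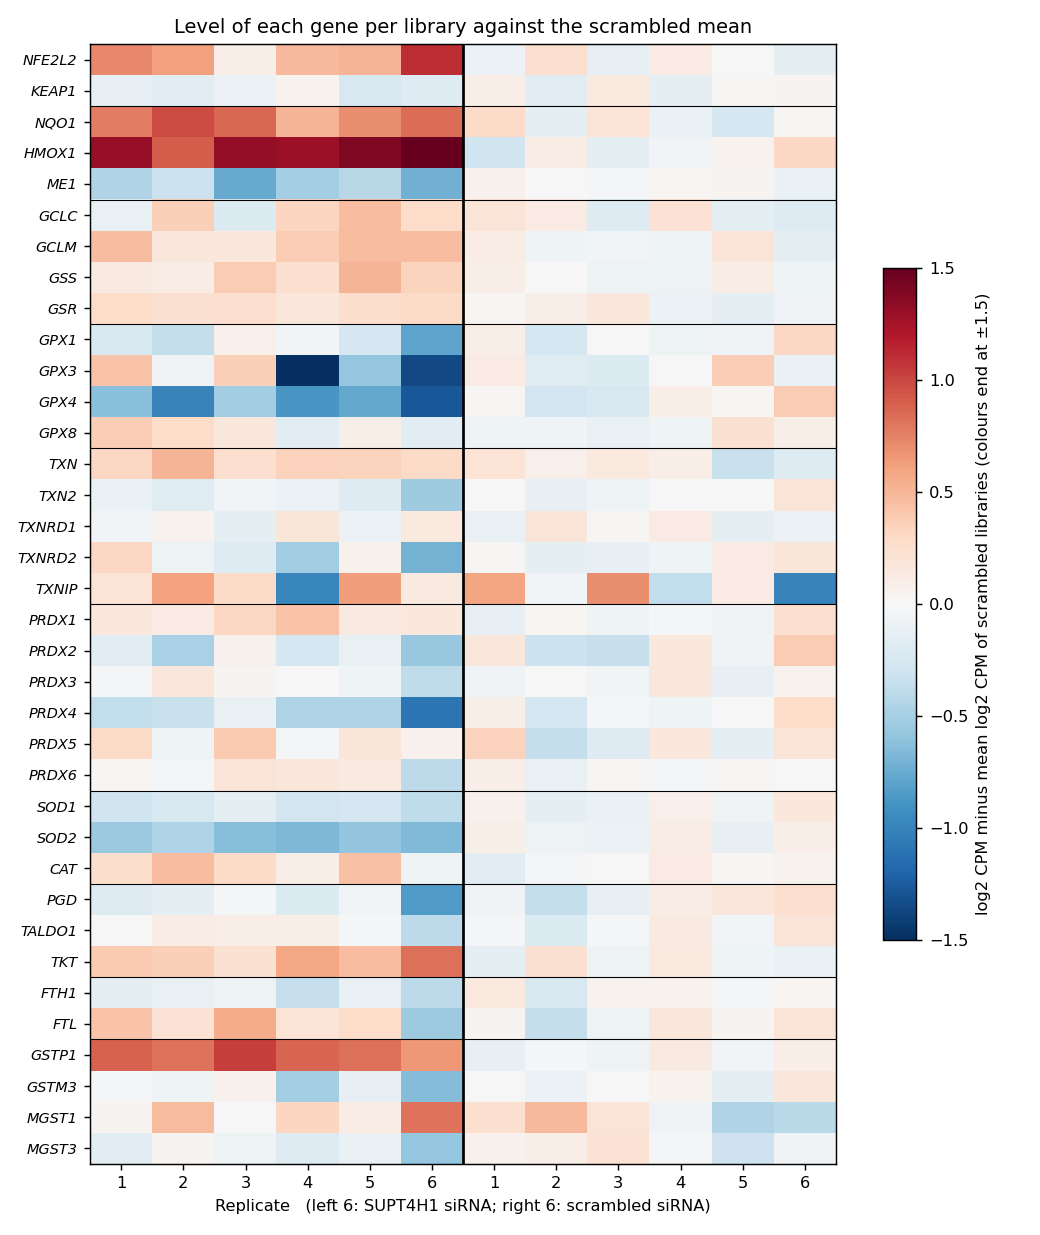
Log2 CPM of the 36 tested genes in each library minus the mean of the scrambled libraries, with SUPT4H1 siRNA replicates 1 to 6 on the left and scrambled siRNA replicates 1 to 6 on the right; colours end at ±1.5. HMOX1 and GSTP1 are high in all 6 SUPT4H1 siRNA libraries, GPX4, SOD2 and ME1 low, and replicate 6 is the lowest of its group for 17 of 36 genes.

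Ratios of counts between genes of one library do not depend on how libraries are scaled. A set of 9 pairs of partners or paralogs was formed after the values had been seen, so the ratios are a description with no test. GPX4 to GPX1 averaged -0.39 ± 0.15 (log2) with SUPT4H1 siRNA and 0.18 ± 0.15 with scrambled siRNA (SD, n = 6 each). SOD2 to SOD1 averaged -3.77 ± 0.11 and -3.44 ± 0.06, so the mitochondrial enzyme was lower relative to the cytosolic one with SUPT4H1 siRNA. TXN to TXN2 averaged 1.11 ± 0.19 with SUPT4H1 siRNA and 0.59 ± 0.28 with scrambled siRNA. GSTP1 to GSTM3 averaged 5.78 ± 0.22 and 4.71 ± 0.09, the widest difference of the 9 pairs (1.06). For these 4 ratios every SUPT4H1 siRNA library lay outside the scrambled range. They overlapped for NFE2L2 to KEAP1 (-1.03 ± 0.38 with SUPT4H1 siRNA, -1.75 ± 0.27 with scrambled siRNA), PRDX1 to PRDX2 and FTL to FTH1, whose differences were 0.72, 0.47 and 0.39. GCLM to GCLC and TXNRD1 to TXNRD2 differed by 0.17 and 0.21, with largely shared ranges.

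**Figure D4:**
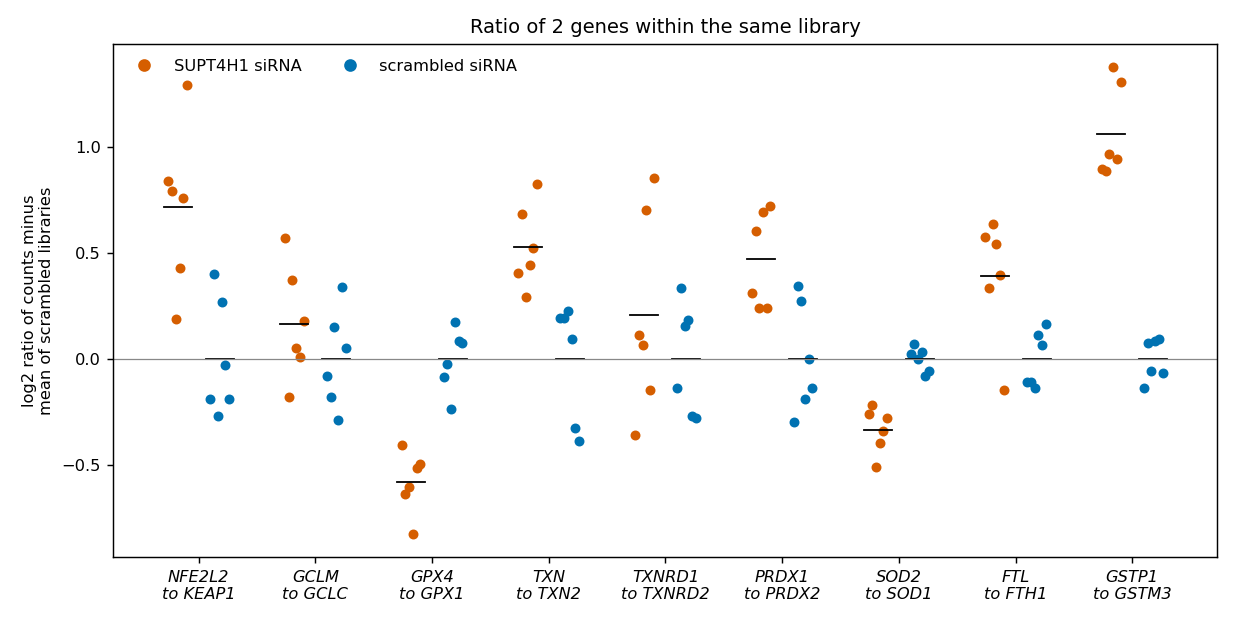
Log2 ratio of counts of 9 gene pairs within each library, minus the mean of the scrambled libraries, with SUPT4H1 siRNA left of scrambled siRNA in each pair (6 points each, bars at the mean). The groups are apart for GPX4 to GPX1, TXN to TXN2, SOD2 to SOD1 and GSTP1 to GSTM3, and overlap for the other pairs.

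Grouped by features that the choice of genes did not use, the 5 selenoproteins (GPX1, GPX3, GPX4, TXNRD1 and TXNRD2) all fell on the spike-in scale, and 1 of them, GPX4, fell in relative abundance. The 4 genes grouped here as mitochondrial (TXN2, TXNRD2, PRDX3 and SOD2) likewise all fell on the spike-in scale, and only SOD2 did so relatively. That grouping was made by hand and need not hold every antioxidant gene with a mitochondrial form. With subgroup C, GPX4 and SOD2 alone of these 8 genes passed, where 2227 of all genes fell. The background was 59.0% fallen with subgroup B and 19.8% fallen in relative abundance. Such small groups are given as counts only. Together the 39 genes took 0.965 ± 0.0389% of endogenous counts with SUPT4H1 siRNA and 0.841 ± 0.0397% with scrambled siRNA (SD, n = 6 each). GSTP1 alone took 0.235 ± 0.0143% with SUPT4H1 siRNA and 0.128 ± 0.0107% with scrambled siRNA. Without it the other 38 genes took 0.730 ± 0.0270% with SUPT4H1 siRNA and 0.713 ± 0.0317% with scrambled siRNA.

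The wider pathway was followed in 87 other genes in 6 lists, of which 72 could be tested. In relative abundance 15 rose (20.8%) and 18 fell (25.0%), with a median of 0.03, beside 20.3% risen and 19.8% fallen of all genes tested. Of the 10 NRF2 partners and turnover factors 2 rose, the repressor BACH2 (log2 0.31) and the autophagy adaptor SQSTM1 (0.19), and the small MAF gene MAFK fell (-0.76). Of 19 other NRF2 target genes tested, 3 rose, which were IDH1 (0.49), SLC48A1 (0.54) and SESN2 (0.22), and 4 fell, which were SLC7A11, NQO2 (-0.48), BLVRA (-0.30) and CBR1 (-0.18). The largest fall within this list was that of SLC7A11, the cystine importer that feeds glutathione synthesis, at 7.50, 8.55 and 10.3 CPM with SUPT4H1 siRNA, against 20.9, 22.5 and 24.3 CPM with scrambled siRNA. It fell by 1.38 on the log2 scale (edgeR adjusted p = 4.17e-09), with no overlap. SLC7A11, GSTO2, CHAC1, CHAC2, GLRX5 and RPIA are named for having the 3 largest falls and 3 largest rises over the lists, so their sizes are selected, and the other genes of these lists were picked after their values were seen. On the spike-in scale only RPIA of the 15 risen genes had a positive estimate (0.28, adjusted p = 0.43).

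Other glutathione enzymes had 4 risen and 9 fallen genes of 18 tested, with a median of -0.23, where 20.3% of all genes tested rose and 19.8% fell. GSTO2, an omega-class transferase, fell by 1.94 on the log2 scale. It was at 3.07, 4.98 and 6.86 CPM with SUPT4H1 siRNA, against 17.5, 19.9 and 21.9 CPM with scrambled siRNA (edgeR adjusted p = 4.17e-09). CHAC1, which degrades glutathione, fell by 1.64 (adjusted p = 9.44e-08) and was at 4.27, 5.54 and 6.83 CPM with SUPT4H1 siRNA, against 13.6, 17.0 and 22.0 CPM with scrambled siRNA. Both falls left no overlap between the groups. Its paralog CHAC2 rose by 0.64 (adjusted p = 0.018), with overlapping groups of 4.47 to 8.97 CPM and 3.18 to 5.83 CPM. GLRX5, a mitochondrial glutaredoxin of iron-sulfur cluster assembly, rose by 0.71 (adjusted p = 5.97e-08) and was at 134 to 159 CPM against 89.6 to 96.8 CPM with scrambled siRNA. GGT7, a gamma-glutamyltransferase family member, and GSTCD also rose (log2 0.43 and 0.52). The other fallen genes were GGT1, which cleaves extracellular glutathione (-0.88, adjusted p = 0.00039, no overlap), GGCT (-0.44), GLRX2 (-0.37), HAGH (-0.28), GLRX3 (-0.26), GSTO1 (-0.26) and GLO1 (-0.25).

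Beside the relative counts of the lists that follow, 20.3% of all genes tested rose and 19.8% fell, and none of these small counts sets a list apart. Thioredoxin-fold and methionine repair genes had 2 risen genes, TXNDC12 (log2 0.29) and TXNDC17 (0.35), and 1 fallen, TXNL1 (-0.32), of 10. Superoxide and NADPH genes had 3 risen, RPIA, TIGAR (0.51) and CCS (0.37), the last a copper chaperone for SOD1, and 1 fallen, RPE (-0.31), of 8. The largest rise there was RPIA, ribose 5-phosphate isomerase of the non-oxidative pentose phosphate branch, at 44.4, 46.9 and 56.8 CPM with SUPT4H1 siRNA, against 19.1, 22.3 and 27.0 CPM with scrambled siRNA. The groups were well apart, and it rose by 1.12 on the log2 scale (edgeR adjusted p = 1.90e-08). The selenocysteine insertion machinery, on which GPX4 and the other selenoproteins depend, had 1 risen gene, SEPHS2 (0.18), and 2 fallen, SECISBP2 (-0.36) and PSTK (-0.56), of 7. On the spike-in scale 44 of the 72 genes fell (61.1%) and 0 rose (edgeR; 0 also at an unadjusted p under 0.05), near the 59.0% and 0.304% of all genes.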

How the data were processed

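The values are raw counts per gene, deposited by the authors as whole numbers in 1 table for 12 QuantSeq 3′ libraries. The submitters' processing notes name GRCh38.p10, STAR, FastQC 0.11.5, MultiQC and R 3.4.3. Which counter and annotation release made the table, and whether it used strand, is not given in the sources used here. Overlapping genes and near-identical copies are therefore uncertain. Exons of 9 of the 39 genes overlap a gene on the opposite strand and exons of 5 overlap one on the same strand. Positions came from GENCODE on GRCh38 and promoter sequences from RefSeq (GRCh38.p14).

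Counts were scaled by TMM over all endogenous genes, filtered with filterByExpr and tested with edgeR 4.0.16 (quasi-likelihood, robust) in R 4.3.3 on 6 against 6 libraries without covariates. Adjusted p-values are Benjamini-Hochberg values over all 13820 genes, with a threshold of 0.05. Filtering before scaling had been run first. The order used here was taken up after those calls were seen, to match an earlier processing of these data, and the other order is kept as an alternative. ERCC standards, the GFP row and their counts entered no library size.

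Spike-in scaling used the 23 standards of subgroup B. Which standard belongs to which subgroup was set from general knowledge of the product, and the labels of C and D were exchanged after their observed ratios had been seen. Their agreement with the nominal ratios is thus not independent, and values scaled by C rest on that exchange. The median observed log2 difference, SUPT4H1 siRNA minus scrambled siRNA, was -2.03 for subgroup A (nominal -2) and -0.0149 for B (nominal 0 by scaling).

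The genes and lists were chosen with earlier results of these data known. All 39 genes are named. Of the wider lists, the 3 largest rises and 3 largest falls past the threshold with a group mean of at least 5 CPM are named, and others only where said. Ratios used a pseudocount of 0.5 counts. Alternatives were DESeq2 1.42.0, limma-voom 3.58.1, other scalings and filters, a covariate for RNA integrity, a block for the replicate number, a required change of 1.5-fold, other ERCC subgroups and leaving out each library. On simulated data of 13624 genes for the relative comparison, 64.2% of 67 planted 1.5-fold changes were called. The shares were 80.6% of 67 planted 2-fold and 98.5% of 66 planted 4-fold changes. Far fewer genes changed there than the 2806 risen and 2734 fallen genes here, so these shares need not hold for these data. All 30 pairs of libraries within a group differed beyond what sampling noise gives, with a chi-square of 4.45 to 34.7 for each degree of freedom.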

Additional observations from a re-analysis of the deposited data

Results flagged for a closer look

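In 4 of 76 sets of 6 values, 1 library lay far from the others by Dixon's criterion, where chance alone gives about 1 in 20 (3.8 sets). SUPT4H1 siRNA replicate 6 was the low library in 3 of them. TXN2 was at 136 CPM there, with the next library at 172 and the highest at 191 CPM. PGD was at 53.1 CPM, with the next at 82.7 and the highest at 94.6 CPM. TALDO1 was at 144 CPM, with the next at 184 and the highest at 203 CPM. For PRDX1, scrambled siRNA replicate 6 was the high library at 2100 CPM, with the next at 1801 and the lowest at 1621 CPM.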

How the results depend on the processing

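In relative abundance, 14 of the 16 called genes passed the test in all 12 fits that left out 1 library; CAT and PRDX1 did not, and PRDX1 also missed with upper-quartile factors (adjusted p = 0.081). Leaving out 1 library gave 9 to 12 risen and 5 to 10 fallen antioxidant genes. Over all genes, the same fits gave 2541 to 2724 risen and 2479 to 3177 fallen. With a required change of 1.5-fold (edgeR glmTreat), 2 rose (HMOX1 and GSTP1) and 0 fell. GPX4 alone, 1 gene, was lower at an unadjusted p under 0.05 in that test. Over all genes, 299 rose and 236 fell under the same requirement. No called gene changed direction under the alternatives run. Among the uncalled genes, TXNRD1 was -0.00 with upper-quartile factors (-0.03 to 0.05 without 1 library), TXNIP was -0.02 and TALDO1 0.02 with RNA integrity as a covariate (-0.03 to 0.28 and -0.08 to 0.03 without 1 library), and PRDX3 and PRDX6 ranged over -0.08 to 0.00 and -0.02 to 0.08. Filtering before scaling gave 11 risen and 6 fallen genes.

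On the spike-in scale, 15 to 32 antioxidant genes fell without 1 library, 18 with all ERCC subgroups and 4 with subgroup C (GPX4, ME1, SOD2 and PRDX4). Over all genes, 5643 to 12306 fell without 1 library and 2227 with subgroup C. With subgroup C, NFE2L2 was 0.10, NQO1 0.24 and GSTP1 0.32. With all subgroups, NQO1 was 0.02 and GSTP1 0.08. Without 1 library they ranged over -0.28 to 0.06 (NQO1) and -0.28 to 0.19 (GSTP1). The cause was not tested.

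Replicate numbers did not pair the libraries (correlations of same-numbered deviations -0.315 to 0.063, none best with its own number). With the number as a replicate block, 9 genes rose and 5 fell in relative abundance, CAT (adjusted p = 0.096) and PRDX1 (0.081) no longer passing, and 25 fell on the spike-in scale. Counts were lowest for NQO1, GPX3, OSGIN1, GPX7 and SRXN1, at under 100 in every library. The largest SE of relative log2 changes were those of TXNIP (0.32), GPX3 (0.26) and MGST1 (0.18), beside 0.15 for NQO1.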

Other observations

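Across the 36 tested genes, SUPT4H1 siRNA replicate 6 was the lowest of its group for 17 and replicate 3 the highest for 13. Scrambled siRNA replicate 2 was the lowest of its group for 13 genes and scrambled siRNA replicate 6 the highest for 13. The coefficient of variation had a median of 13.6% within SUPT4H1 siRNA libraries, where GSR was the most even gene (2.77%) and GPX3 the least (52.7%). Within scrambled siRNA libraries the median was 9.98%, with ME1 the most even (4.06%) and TXNIP the least (39.9%).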
